A study of Arabidopsis thaliana with 74 samples.

Results

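The small RNAs (sRNAs) of the chromosome 3 pericentromere of Arabidopsis thaliana were described in 29890 windows of 200 bp. Members were the regions counted for the CHH context on chromosome 3 that tile the chromosome without overlap and whose midpoint lay between 10.6 and 16.6 Mb, leaving out 14.19 to 14.21 Mb, where a copy of the ribosomal RNA genes lies. They are 29890 of the 594835 such windows of the genome, and no sRNA value was used to choose them. The libraries came from 36 families of epigenetic hybrids. Each epiHybrid is the F1 of a male sterile Columbia mother (msCol) and 1 epigenetic recombinant inbred line (epiRIL), and the epiRIL of a family carries the number of its epiHybrid. All groups share the Columbia background and a functional DDM1 gene. The epiRILs descend from a cross with a ddm1-2 mutant, followed by repeated selfing, and carry stretches of chromosome that lost DNA methylation in that mutant. msCol carries the ms1 mutation within a Landsberg segment on chromosome 5, and every epiHybrid has 1 copy of that segment. Aerial rosettes were harvested 27 days after sowing in long days and pooled over the cultivations, and total RNA gave 1 library per line: 36 epiHybrids, 36 epiRILs and 2 msCol plants (msCol12 and msCol16). Which msCol plant mothered which family is not stated, so the mean of both stands for the mother, and p-values measure the spread between lines. In such bulk libraries, fewer cells that make an sRNA and less sRNA per cell cannot be told apart.

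As background, pericentromeres are the transposon-rich, densely methylated regions on both sides of a centromere. Plant transposons are transcribed by RNA polymerase IV, the transcripts are made double-stranded by RDR2 and cut by DCL3 into sRNAs of 24 bases, and these guide the methyltransferase DRM2, through AGO4, to matching DNA. This is RNA-directed DNA methylation. It adds methylation of cytosines in the CHH context, where H is A, C or T. DDM1 is a chromatin remodeller that gives the maintenance methyltransferases access to heterochromatin, and methylation lost in a ddm1 mutant can stay lost for generations after DDM1 is restored.

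The windows on which the results turn are shown first, from the RefSeq TAIR10.1 genome, on the plus strand, in lower case with the cytosines in the CHH context of that strand in capitals. The first pair holds the most abundant windows outside annotated RNA genes. The next leads the windows that were lower in epiHybrids than in epiRILs, and the following pair those higher and lower in epiRILs than in msCol. The last varied most between epiRILs.
chr3:15676601-15676800, 583 bp from the pseudogene AT3G43828: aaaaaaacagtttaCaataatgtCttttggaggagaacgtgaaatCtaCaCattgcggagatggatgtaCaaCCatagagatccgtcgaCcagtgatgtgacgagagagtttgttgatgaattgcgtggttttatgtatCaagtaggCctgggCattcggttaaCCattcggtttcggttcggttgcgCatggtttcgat
chr3:13591601-13591800, intergenic: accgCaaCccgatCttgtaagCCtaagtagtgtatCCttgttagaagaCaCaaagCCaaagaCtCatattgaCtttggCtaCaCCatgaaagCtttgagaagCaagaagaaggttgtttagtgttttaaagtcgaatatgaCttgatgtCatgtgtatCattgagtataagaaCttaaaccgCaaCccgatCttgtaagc
chr3:12990801-12991000, 593 bp from AT3G32010: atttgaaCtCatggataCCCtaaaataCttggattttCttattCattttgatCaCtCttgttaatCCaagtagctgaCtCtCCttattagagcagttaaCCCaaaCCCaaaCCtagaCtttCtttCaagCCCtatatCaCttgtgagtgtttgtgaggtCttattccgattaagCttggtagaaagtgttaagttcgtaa
chr3:15815201-15815400, 1145 bp from SADHU3-1: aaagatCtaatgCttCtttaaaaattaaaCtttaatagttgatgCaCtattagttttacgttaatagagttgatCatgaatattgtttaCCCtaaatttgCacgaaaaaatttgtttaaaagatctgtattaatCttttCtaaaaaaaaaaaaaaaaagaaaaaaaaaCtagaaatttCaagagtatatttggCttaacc
chr3:16421201-16421400, over the exon of AT3G44950: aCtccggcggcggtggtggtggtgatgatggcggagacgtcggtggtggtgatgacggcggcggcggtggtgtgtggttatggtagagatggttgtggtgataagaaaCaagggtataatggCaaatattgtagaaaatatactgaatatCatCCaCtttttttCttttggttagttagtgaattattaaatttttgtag
chr3:15285401-15285600, in an intron of AT3G43340: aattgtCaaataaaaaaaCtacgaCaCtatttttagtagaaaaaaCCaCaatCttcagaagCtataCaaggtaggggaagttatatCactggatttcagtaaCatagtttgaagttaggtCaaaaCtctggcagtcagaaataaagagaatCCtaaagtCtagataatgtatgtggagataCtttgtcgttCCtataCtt
Also shown are windows from 3 stretches in the 100-kb bins that varied most between epiRILs, each by the window with the largest variance in it. The first is intergenic, the second lies in the pseudogene AT3G43862, and the third in AT3G44580, an uncharacterised gene beside AT3G44570, which RefSeq annotates as a retrotransposon ORF-1 protein.
chr3:13769201-13769400: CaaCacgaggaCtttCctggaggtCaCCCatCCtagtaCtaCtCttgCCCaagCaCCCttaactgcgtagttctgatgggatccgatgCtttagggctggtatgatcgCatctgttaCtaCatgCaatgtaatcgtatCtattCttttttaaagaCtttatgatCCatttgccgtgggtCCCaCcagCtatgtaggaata
chr3:15715401-15715600: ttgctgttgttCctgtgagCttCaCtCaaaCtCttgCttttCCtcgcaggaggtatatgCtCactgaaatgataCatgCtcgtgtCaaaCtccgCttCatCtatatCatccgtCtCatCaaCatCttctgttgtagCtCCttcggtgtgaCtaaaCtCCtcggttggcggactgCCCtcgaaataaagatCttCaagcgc
chr3:16160801-16161000: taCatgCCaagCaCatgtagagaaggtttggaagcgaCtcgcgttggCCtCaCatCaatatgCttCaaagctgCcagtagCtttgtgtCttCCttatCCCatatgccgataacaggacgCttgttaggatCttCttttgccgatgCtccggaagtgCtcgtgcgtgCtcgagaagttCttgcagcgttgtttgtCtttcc

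Libraries held 20995764 to 27084303 counts over all windows, and 3.53 to 5.88% of them lay in the interval. Leaf microRNA genes were counted as labelled for a rosette, with medians from 129 counts at MIR156A to 260630 at MIR159A. Both msCol libraries differed in composition: TMM scaling (a trimmed mean of ratios between libraries) gave them factors of 1.09 for msCol12 and 0.733 for msCol16. At the 325 windows around MS1 where msCol and the epiRILs differ, a library was placed between an epiRIL level of 1 and an msCol level of 0. The median was 0.485 for epiHybrids and 0.992 for epiRILs, but families 12 and 568 went against their labels: the library labelled epiHybrid 12 stood at 1.03 and the library labelled epiRIL 12 at 0.648, and those of family 568 stood at 1.22 and 0.585. Results are given with all 36 families and, where these libraries bear on them, also without families 12 and 568.

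The interval was dense in sRNAs. The median window had a mean of 10.05 counts per library, against 0.297 on the chromosome arms and 7.93 in the other 4 pericentromeres (windows within 3 Mb of the middle of each centromere). Only 124 windows were without a count in every library, and 21578 passed the filter for testing, a mean of at least 2 counts. The 100 most abundant windows held 18.2% of the counts. Windows without an annotated gene were 45.2% of the interval and held 58.5% of its counts, and pseudogenes, the class under which the RefSeq annotation lists transposon genes here, were 35.1% and held 29.3%. Exons of protein-coding genes were 16.7% of windows but held 8.23% of counts, with a median of 0.649 counts per window. On average 72.2% of the 24-base words of a window occurred once in the genome, against 95.1% on the arms, so some reads counted here match several places in the genome.

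The 5 most abundant windows outside RNA genes all lay between genes. The first, chr3:15676601-15676800, had 1444, 4045 and 33200 normalised counts as lowest, median and highest epiRIL, 1333, 4714 and 37130 in the epiHybrids, and 2999 and 7733 in msCol12 and msCol16 (a normalised count is a count scaled to the mean TMM library size). The second, chr3:13591601-13591800, had 3414, 6306 and 8996 in the epiRILs, 3672, 5635 and 9177 in the epiHybrids, and 3811 and 5935 in msCol. Groups overlapped at both, and the first spread far wider. The other 3, starting at 11215401, 11182401 and 15633001, had epiRIL medians of 5191 to 5701 and epiHybrid medians of 5197 to 5513. None of the 5 passed the test in any of the 3 comparisons (smallest edgeR adjusted p = 0.15).

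The summed level of the interval was nearly the same in all groups. In TMM-scaled CPM (counts over the scaled library total), epiHybrids ranged from 42410 over a median of 49070 to 53500, with a mean of 49050 ± 2256 (SD, n = 36). The epiRILs ranged from 42240 over 49420 to 54820, with a mean of 49260 ± 2523 (SD, n = 36). msCol12 had 51150 and msCol16 48210, both within the range of the lines. The mean log2 ratio of an epiHybrid to its own epiRIL was -0.0059 (SD 0.078, sign-flip permutation over families, two-sided p = 0.657, higher in 15 of 36 families). Against the linear mid-parent value, the mean of the epiRIL and of both msCol libraries, epiHybrids diverged by -0.84% (SD 4.28, p = 0.248, above in 14 of 36 families). The choice of mother decided that value: with msCol12 alone it was -2.29% (p = 0.0021) and with msCol16 alone 0.66% (p = 0.37), and the error of the maternal value is not part of these p-values. Scaling decided it as well, with -3.48% under DESeq2 size factors (p = 3e-05) and 6.85% under library size only (p = 8e-05). The epiRILs differed from msCol by -0.014 on the log2 scale (exact permutation test, two-sided p = 0.801, where 0.00142 is the smallest the design allows).

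**Figure D1:**
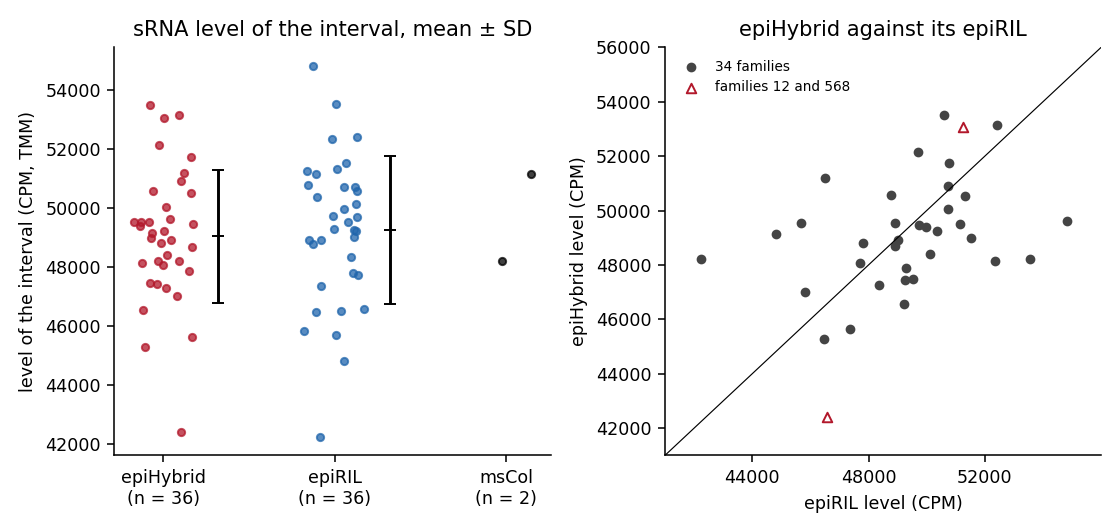
sRNA level of the chromosome 3 pericentromere. Left, the level of each library in TMM-scaled CPM by group, with bars for the mean and SD; right, the level of each epiHybrid against that of its epiRIL, with the line of equality and open triangles for families 12 and 568. The groups overlap throughout (epiHybrids 49050 ± 2256, epiRILs 49260 ± 2523), and points rise weakly from left to right.

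Levels of an epiHybrid and its epiRIL were related over the 36 families (Pearson r = 0.396, permutation p = 0.0168, Spearman rho = 0.446, permutation p = 0.00661, 1 relation tested). Without the 2 families whose epiRIL lay farthest from the median, r was 0.440. Without families 12 and 568, r was 0.337 (permutation p = 0.0514) and rho 0.396 (p = 0.0216), so the linear relation missed the threshold there.

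Divergence from the mid-parent value was 1.48 percentage points higher in the interval than in the mean of the other 4 pericentromeres (SD 3.67, sign-flip permutation over families, p = 0.0218, higher in 24 of 36 families). That difference rested on chromosome 5, whose pericentromere diverged by -7.47% and whose epiRILs ranged from 38900 to 104900 CPM. Without chromosome 5 the difference was -0.239 points (p = 0.628).

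Within the interval, the levels near the middle and near the edges differed in opposite directions from the mid-parent value. In the 9890 windows within 1 Mb of the middle, msCol12 had 16120 CPM and msCol16 12980, the epiRILs 8197, 12050 and 16220 as lowest, median and highest, and the epiHybrids 8141, 11900 and 15240. The median of both sets of lines stood below both mothers, and epiHybrids diverged by -10.35% from the mid-parent value (SD 7.24, above it in 3 of 36 families). The size depended on the mother, -15.34% with msCol12 alone and -4.72% with msCol16 alone, and was -9.85% without families 12 and 568. Between 1 and 2 Mb from the middle the divergence was -0.567%, and its sign followed the mother, -3.46% with msCol12 and 2.51% with msCol16. Between 2 and 3 Mb from the middle, msCol12 had 19620 CPM and msCol16 21570, the epiRILs 18350, 22060 and 25230, and the epiHybrids 19380, 22580 and 25550. All groups overlapped, and epiHybrids stood above the mid-parent value by 4.73% (SD 4.73, above in 29 of 36 families), 7.17% with msCol12 alone and 2.40% with msCol16 alone.

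In bins of 100 kb the same profile was seen more finely. Of the 60 bins, 18 were higher and 22 lower than the mid-parent value (sign-flip permutation over families, adjusted over all 1182 bins of the genome), which is 66.7% against 59.3% of all bins called (36.2% higher and 23.1% lower over all bins). The lowest bin, which starts at position 13900001, was at -24.73% (above in 0 of 36 families). In that bin msCol12 had 1377 CPM, msCol16 758.2 and the epiRILs a median of 605.2, so the mothers themselves lay far apart. The bins from 14100001 and 14200001 (-22.34 and -24.62%) are among the 22 lower ones. Their divergence was computed with the windows of the ribosomal RNA gene copy included, so it is not that of member windows alone. The highest were 10.32% from 11700001 and 10.01% from 15800001, each above in 34 of 36 families. With msCol16 alone as mother 20 bins were higher and 12 lower, 53.3% against 59.0% of all bins, and with msCol12 alone 22 and 28, 83.3% against 76.3%. Scaling moved the split too, to 12 higher and 34 lower with DESeq2 size factors (76.7% against 57.8%) and 32 and 12 with library size only (73.3% against 81.2%), so the share of bins called was not above that of the genome in every setting.

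**Figure D2:**
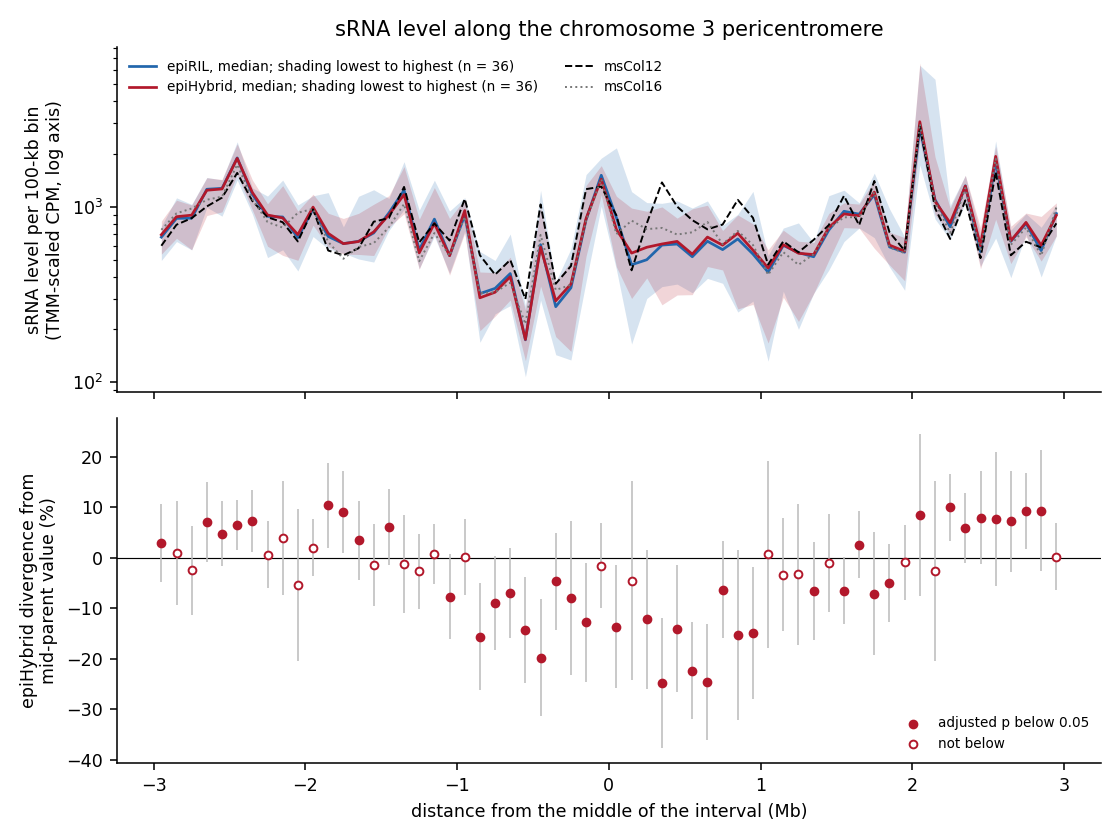
sRNA level along the chromosome 3 pericentromere in bins of 100 kb, by distance from the middle of the interval in Mb. Top, TMM-scaled CPM on a log axis as medians of 36 epiHybrids and 36 epiRILs, shading from the lowest to the highest library, with msCol12 and msCol16 as separate lines; bottom, the divergence of epiHybrids from the mid-parent value in percent, filled where the adjusted p is below 0.05. Divergence reaches -24.73% within 1 Mb of the middle and 10.32% towards the edge. At 0.55 and 0.65 Mb the divergence includes the windows of the ribosomal RNA gene copy, which the levels leave out.

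Window by window, epiHybrids were compared with their epiRILs in edgeR with family as a block. Of 21582 windows tested, 1123 were higher and 377 lower in epiHybrids, 6.95% against 8.02% of all windows of the genome (higher 5.20% against 4.46%, lower 1.75% against 3.56%). The share called in the other 4 pericentromeres was 10.1%. With DESeq2 size factors 858 were higher and 478 lower, and with library size only 1493 and 256. Without the family block 411 were higher and 122 lower, and without families 12 and 568, with the block, 1288 and 577. By annotation, 634 windows without an annotated gene were higher and 232 lower (8.58% of 10081 tested), as were 389 and 123 in pseudogenes (5.33% of 9612) and 54 and 15 in exons of protein-coding genes (4.63% of 1487).

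Among the windows leading the increases, a pair lay about the pseudogenes AT3G32230 and AT3G32240. At chr3:13212201-13212400, at the end of the pseudogene AT3G32240, the epiRILs had 0, 5.75 and, in family 568, 84.2 normalised counts, the epiHybrids 4.54, 74.95 and 152.1, and msCol 95.5 and 163.8 (log2 3.04, edgeR adjusted p = 5.6e-09, higher in 34 of 36 families, and log2 3.30 without families 12 and 568). The labels of family 568 are in doubt, and the next epiRIL had 50.2. The window chr3:13209201-13209400, 263 bp from AT3G32230, gave 0.914, 19.4 and 73.8 in the epiRILs, 9.99, 94.5 and 152.5 in the epiHybrids and 134.9 and 187.3 in msCol (log2 2.05, adjusted p = 2e-07, 34 of 36). At both, the epiHybrids overlapped the epiRILs and the mothers, but every epiRIL stood below both mothers. The median epiHybrid stood between the median epiRIL and the mothers. The epiHybrid means were close to the linear mid-parent value, at 1.02 and 0.950 of it.

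Another increase went beyond both parents. At chr3:15630401-15630600 the epiRILs had 10.05, 17.8 and 154.7 normalised counts (the highest labelled epiRIL 568, the next 95.8), the epiHybrids 9.41, 128.3 and 230.1, and msCol12 and msCol16 104.0 and 41.0. The epiHybrid median was above either parent, and the mean was 2.58 times the linear mid-parent value (against epiRIL log2 2.51, adjusted p = 6.2e-10, higher in 33 of 36; against mid-parent log2 1.54, adjusted p = 0.042). Without families 12 and 568 the difference from the mid-parent value was log2 1.80 (edgeR adjusted p = 7.4e-05). With all families that call was lost with either msCol library left out (adjusted p = 0.16 without msCol12 and 0.38 without msCol16).

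At the 5 windows leading the decreases both msCol libraries lay below the median epiRIL. At chr3:10718401-10718600, over the gene AT3G28590, the epiRILs had 11.66, 87.6 and 283.4 normalised counts, the epiHybrids 2.92, 21.4 and 250.0 (the library labelled epiHybrid 568, the next 138.9) and msCol 4.68 and 10.2 (log2 -1.30, adjusted p = 0.00068, lower in 30 of 36 families). At chr3:13652401-13652600 both msCol libraries had 0, the epiRILs 0, 170.4 and 2262 and the epiHybrids 0, 38.4 and 769.4 (log2 -1.26, adjusted p = 0.0024, lower in 29 of 36). The ranges of epiRILs and epiHybrids overlapped at both, and at the first every epiRIL stood above both mothers. Family 41 held the highest epiRIL and the highest epiHybrid at the second. The other 3 windows, starting at 12990801, 13517401 and 15777001, had epiRIL medians of 11.8 to 39.5 and epiHybrid medians of 4.01 to 12.2, with both msCol libraries below the epiRIL median at each. Without the family block the calls at 12990801, 13652401 and 15777001 were lost (adjusted p = 0.18, 0.24 and 0.19).

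Between epiRILs and msCol, 81 of 21578 windows were higher and 132 lower in the epiRILs, 0.987% against 1.92% of all windows (1.06% higher and 0.856% lower). Scaling moved the split, to 132 higher and 103 lower with library size only and 65 and 168 with DESeq2 size factors. With msCol16 left out 23 were higher and 91 lower, and with msCol12 left out 46 and 31. Within 1 Mb of the middle 11 were higher and 100 lower (1.28% of 8662 tested), and between 2 and 3 Mb from it 43 and 23 (1.36% of 4870). Pseudogenes held 22 higher and 70 lower windows (0.957% of 9612) and windows without an annotated gene 55 and 50 (1.04% of 10081), both near the share of the whole interval.

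The exon of AT3G44950, a small gene annotated for a glycine-rich protein, led the decreases. At chr3:16421201-16421400 the epiRILs had 0, 2.44 and 56.8 normalised counts and msCol12 and msCol16 329.7 and 286.7, with the epiHybrids at 0, 73.1 and 439.3. The highest epiRIL was the library labelled 568, and the next had 47.1. No epiRIL reached the level of either mother, while epiHybrids overlapped both parents (epiRIL against msCol log2 -5.16, edgeR adjusted p = 3.2e-07). Its sRNAs were missing, below 10% of the msCol mean, in 34 of the 36 epiRILs and 8 of the 36 epiHybrids. The window at AT3G32240 and that 263 bp from AT3G32230 were also among the 5 leading decreases (log2 -3.42, adjusted p = 1.4e-05, and log2 -2.57, adjusted p = 0.0011), the latter lost without msCol16 (adjusted p = 0.11). The remaining 2, starting at 11288201 and at 13945001 in the pseudogene AT3G33139, had epiRIL medians of 40.7 and 28.1 against msCol values of 76.1 to 351.2, and both calls were lost without msCol12 (adjusted p = 0.64 and 0.51).

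Among the 5 leading increases in epiRILs, chr3:11043601-11043800 had 31.97, 135.8 and 282.0 normalised counts in the epiRILs, 24.4, 100.7 and 307.8 in the epiHybrids, and 16.9 and 16.1 in msCol. Every epiRIL and epiHybrid stood above both mothers (epiRIL against msCol log2 3.12, edgeR adjusted p = 0.0012). The same held at chr3:16307001-16307200, with 48.5, 93.8 and 162.3 in the epiRILs, 26.9, 62.7 and 123.2 in the epiHybrids and 9.37 and 20.5 in msCol (log2 2.64, adjusted p = 7.3e-05). At chr3:12087001-12087200 in the pseudogene AT3G30450 msCol12 had 48.7 and msCol16 0, and the epiRILs 36.8, 184.4 and 355.6 (adjusted p = 0.0019). There the mothers differed from each other. The last 2, starting at 15815201 near SADHU3-1, a non-coding retrotransposon, and at 12128801, had epiRIL medians of 28.8 and 20.7 and msCol values of 0 to 5.62. With 1 msCol library left out, each of these 5 calls was lost in at least 1 of the 2 cases.

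Against the mid-parent value, taken on the log scale in a model of all 74 libraries, 78 windows were higher and 22 lower in epiHybrids, 0.463% against 1.08% of all windows (0.749% higher and 0.33% lower). Without families 12 and 568 they were 81 and 20. The model had no family term, so an epiHybrid and its own epiRIL counted as independent. With limma voom and family as a correlated block, 47 were higher and 20 lower. Of the 78, 72 lay above the means of both parents and all 78 above the linear mid-parent value, with a median ratio of 1.47. Of the 22, 19 lay below the means of both parents, with a median ratio of 0.532. The msCol mean was under the epiRIL mean in 77 of the 78 higher windows and in 0 of the 22 lower ones. The comparison with the mid-parent value and that of epiRILs with msCol share the msCol and epiRIL libraries, so their calls are not independent. Leaving out msCol12 gave 37 higher and 11 lower, and leaving out msCol16 gave 41 and 15. With library size only in place of TMM 301 were higher and 11 lower, and with DESeq2 size factors 54 and 27.

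The 3 leading decreases lay near the middle of the interval. At chr3:13213601-13213800, 126 bp from AT3G32250, msCol12 and msCol16 had 116.1 and 177.0 normalised counts, the epiRILs 3.01, 18.3 and 64.3 and the epiHybrids 0, 13.7 and 55.9. All lines stood below both mothers and the 2 sets of lines overlapped each other, and the epiHybrid mean was 0.175 of the linear mid-parent value (log2 -1.92, edgeR adjusted p = 2.5e-05). At chr3:13541601-13541800 msCol had 190.1 and 218.0, the epiRILs 7.01, 45.9 and 216.2 and the epiHybrids 2.09, 24.7 and 78.2 (0.231 of mid-parent, log2 -1.86, adjusted p = 0.00017). At chr3:13789001-13789200 msCol had 134.9 and 190.2, the epiRILs 18.2, 43.2 and 106.0 and the epiHybrids 10.2, 39.1 and 89.1 (0.396 of mid-parent, log2 -1.09, adjusted p = 0.00059, 0.071 without msCol16). The 3 leading increases, starting at 15815201, 15630401 and 12128801, had ratios of 2.14, 2.58 and 1.71 to the linear mid-parent value, and each call was lost with either msCol library left out.

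The windows that varied most between epiRILs were set apart by 1 or a few lines. They were picked for this spread and are described without a test. In the intron of AT3G43340, annotated as a pseudouridine synthase family gene, epiRIL 266 had 1213 normalised counts and the next line 19.3, and its epiHybrid had the highest value of its group, 699.7, while msCol had 9.37 and 1.46. At chr3:12586601-12586800 epiRIL 519 had 992.9 and the next line 33.9, and epiHybrid 519 was again highest, at 142.1. At chr3:14603201-14603400 in the pseudogene AT3G42466 epiRIL 574 had 1092 and the next line 192.1, and epiHybrid 574 had 559.0. In these 3 windows the family of the extreme epiRIL held the extreme epiHybrid. At chr3:10741601-10741800, in contrast, the mothers disagreed: the epiRILs had 0, 0 and 224.6, the epiHybrids 0, 15.4 and 442.2, msCol12 320.3 and msCol16 0.

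Loss of sRNAs in single lines was counted next, by a rule chosen after the data were seen and with no test. Of 7370 windows with at least 20 counts in both msCol libraries, a window was called missing in a line whose normalised count was below 10% of the msCol mean. Since msCol chose these windows, no direction between groups is read from them. In no epiRIL were 4716 windows (64.0%) missing, while 1838 (24.9%) were missing in 3 or more. Among the latter the most frequent number was 9 epiRILs, and 1044 windows (14.2%) were missing in 7 to 10. In the pericentromeres of chromosomes 1, 2, 4 and 5 the share missing in 3 or more epiRILs was 21.2, 20.9, 22.6 and 22.9%, on the arms it was 18.7%, and the share missing in 7 to 10 was 4.90, 3.10, 7.08 and 9.77%. The order depended on the limit: below 20% of the msCol mean, chromosome 5 had 16.8% of windows missing in 7 to 10 epiRILs and the interval 14.2%. Windows missing in 3 or more epiRILs had a median GC content of 43.5% and 96.6% unique 24-base words, against 37.5% and 66.1% where no epiRIL was missing. Among windows whose words were all unique, 52.6% of 1470 were missing in 3 or more epiRILs. By annotation, 33.8% of pseudogene windows and 14.9% of windows without an annotated gene were.

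**Figure D3:**
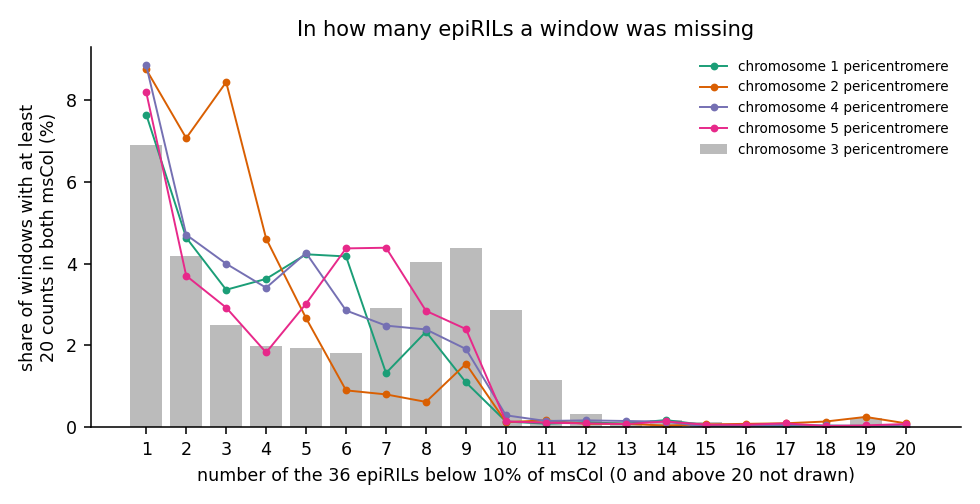
Share of windows with at least 20 counts in both msCol libraries (y axis, percent) by the number of the 36 epiRILs in which the window was missing, below 10% of the msCol mean (x axis). Bars are the chromosome 3 pericentromere and lines the other 4 pericentromeres; the bars rise again to 4.37% at 9 epiRILs.

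The losses were gathered in a few lines. epiRIL 574 missed 1745 windows (23.7%), epiRIL 419 1396, epiRIL 50 1315, epiRIL 211 1215, epiRIL 379 1177, epiRIL 539 1148, epiRIL 424 1133, epiRIL 41 994 and epiRIL 503 957. The other 27 epiRILs missed 28 to 455, with no line between 455 and 957. The epiHybrids missed a median of 58. The library labelled epiHybrid 12 missed 1178 and that labelled epiRIL 12 only 107, the reverse of the other families with high numbers and in the same family that went against its labels at MS1. epiHybrid 503 missed 575.

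Along the chromosome the losses of a line formed long runs. For this the 1428 windows missing in 3 or more epiRILs and kept, at 50% or more of the msCol mean, in 18 or more were divided into 12 blocks of 500 kb with 40 to 271 windows each. epiRIL 574 missed 72.8 to 91.3% of the windows in every block but the seventh, which had the fewest windows (35%). epiRILs 211, 379, 419 and 539 missed 25 to 87.8% in all 12 blocks. Other lines changed within the interval. epiRIL 424 missed 32.5 to 87.8% in the first 10 blocks, then 0.833 and 11.8%. epiRIL 519 missed 19.6 to 60.2% in the first 8 and at most 10.9% in the last 4. epiRIL 454 missed 72.5 and 63.0% in the last 2 blocks and 0 to 22.5% before them, and epiRILs 310 and 469 missed 59.7 and 68.1% in the last. The library labelled epiHybrid 12 missed 41.6 to 81.1% across all blocks.

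**Figure D4:**
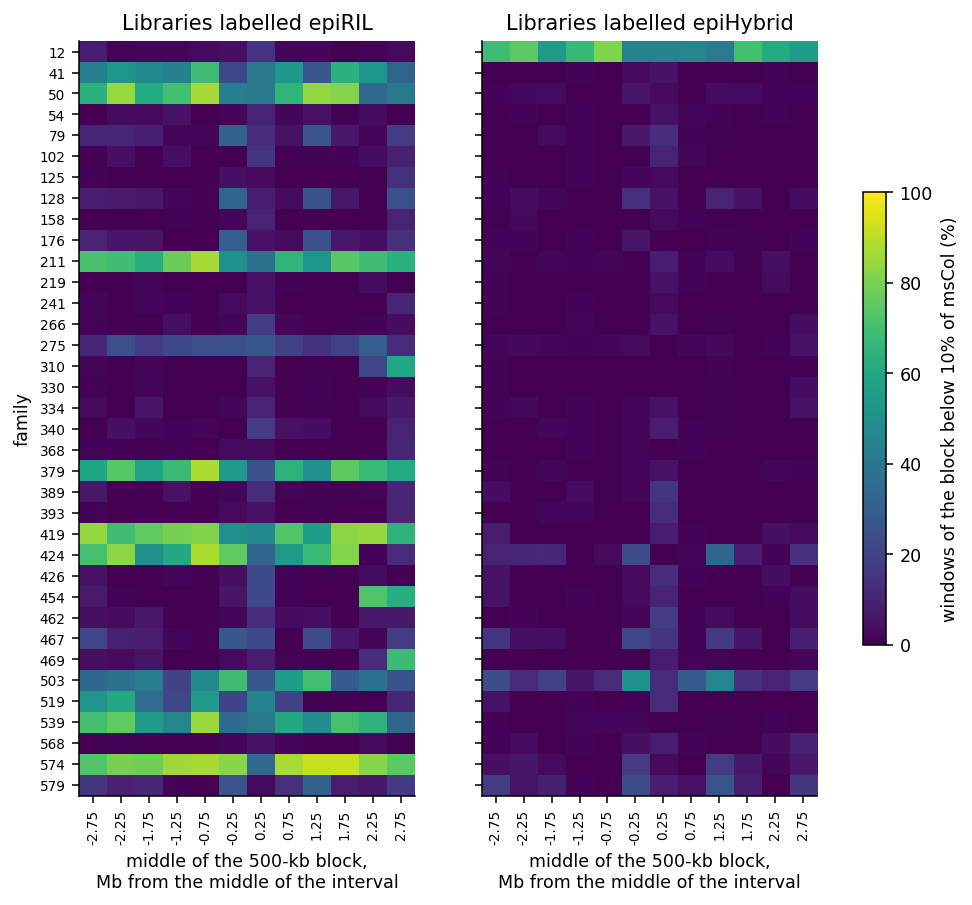
Percent of windows below 10% of the msCol mean in each library (rows, 36 families; left panel libraries labelled epiRIL, right panel libraries labelled epiHybrid) and each 500-kb block (columns, by distance of its middle from the middle of the interval in Mb). Brighter colours are higher percentages. Bright runs cross the interval in epiRILs such as 574 and end or begin within it in 424, 519 and 454. On the right the library labelled epiHybrid 12 is brighter than most others throughout.

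Where an epiRIL missed a window, its epiHybrid usually kept part of the level. For each such window the epiHybrid was divided by the median of the epiHybrids whose epiRIL had kept at least 50% of the msCol mean. The median over windows was 0.431 as median over the 36 families, from 0.0178 to 0.571, and below 0.5 in 28 families. Without families 12 and 568 it was 0.448, from 0.0640 to 0.571, and below 0.5 in 26 of 34. Families with many losses differed: the ratio was 0.571 in family 41, 0.551 in family 379 and 0.521 in family 419, but 0.307 in family 424 and 0.125 in family 503. The libraries labelled epiHybrid 424 and 503 also stood nearer the epiRIL level at MS1, at 0.693 and 0.710 against a median of 0.485. So did those of families 467 (0.667, ratio 0.0791) and 275 (0.667, ratio 0.315). Family 579 did not (0.468, ratio 0.0640). Nor did other families with low ratios, such as 334 (0.449, ratio 0.161), 54 (0.382, ratio 0.212) and 340 (0.436, ratio 0.298). Families 266 (0.591, ratio 0.178) and 219 (0.6255, ratio 0.386) stood nearer it. Whether low ratios belong to whole libraries was not tested. Of 15338 pairs of a line and a window missing in the epiRIL, 13.9% were missing in its epiHybrid too.

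Some windows nearly empty in msCol held sRNAs in epiRILs. These windows were also chosen by msCol, so they are not set against the losses. Of 8660 windows with at most 2 counts in both msCol libraries, 269 reached 20 normalised counts in at least 1 epiRIL, 137 in at least 3, 49 in at least 9 and 9 in at least 18.

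Bins of 100 kb in which the level of the epiRILs varied by more than 35% (SD over mean) were traced to 4 short stretches, also chosen after the data were seen and described without a test. The first, chr3:13769001-13769400, is intergenic and only 9.61% of its 24-base words are unique. The mothers were opposite, with 1.87 normalised counts in msCol12 and 6997 in msCol16. The epiRILs had 0, 2233 and 4394, with epiRILs 12, 102, 368, 454 and 539 at 4.07 or less. Of their epiHybrids, those of families 102, 368 and 454 had 1103, 2081 and 2326, the library labelled epiHybrid 12 had 985.9, and epiHybrid 539 alone had 2.81. The second, chr3:15676601-15677000, holds the most abundant window of the interval. There epiRILs 54, 266, 389, 102 and 158 had 22180, 26630, 28430, 29290 and 33250 and the others 1462 to 9321. Their epiHybrids had 26000, 19310, 34040, 37250 and 10290, all above the msCol values of 3013 and 7765.

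The third stretch, chr3:15714401-15716800, covers the pseudogene AT3G43862 and has 21% unique words. The mothers had 1821 and 1631 normalised counts and the median epiRIL 1843, but 13 epiRILs exceeded 3 times the msCol mean. epiRIL 50 had 101300, epiRIL 454 91120, epiRIL 467 69730 and epiRIL 79 28640. Their epiHybrids had 12550, 7947, 8616 and 3451, which is 0.244, 0.171, 0.241 and 0.227 of their mid-parent values. These epiHybrids stood above the mothers and below the middle of their parents. Over the 12 families other than family 12, whose label is in doubt, the ratio to the mid-parent value ran from 0.171 to 1.12 and was below 1 in 11. The stretch made up 73.9% of the counts of its 100-kb bin in the highest line.

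The fourth stretch, chr3:16158401-16161600, over AT3G44570 and AT3G44580, has 83.2% unique words and went the other way. msCol12 and msCol16 had 25050 and 31640 normalised counts, and the epiRILs 354.4, 28940 and 41670. In 10 epiRILs (102, 125, 128, 158, 241, 340, 368, 389, 393 and 519) it was below 10% of the msCol mean, at 354.4 to 1340. The epiHybrids of these 10 families had 11520 to 23240, or 0.793 to 1.57 of their mid-parent values, so the epiHybrids kept the sRNAs that the fathers lacked. The library labelled epiHybrid 568 had 591.4 and that labelled epiRIL 568 14260, again the reverse of the other families.

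**Figure D5:**
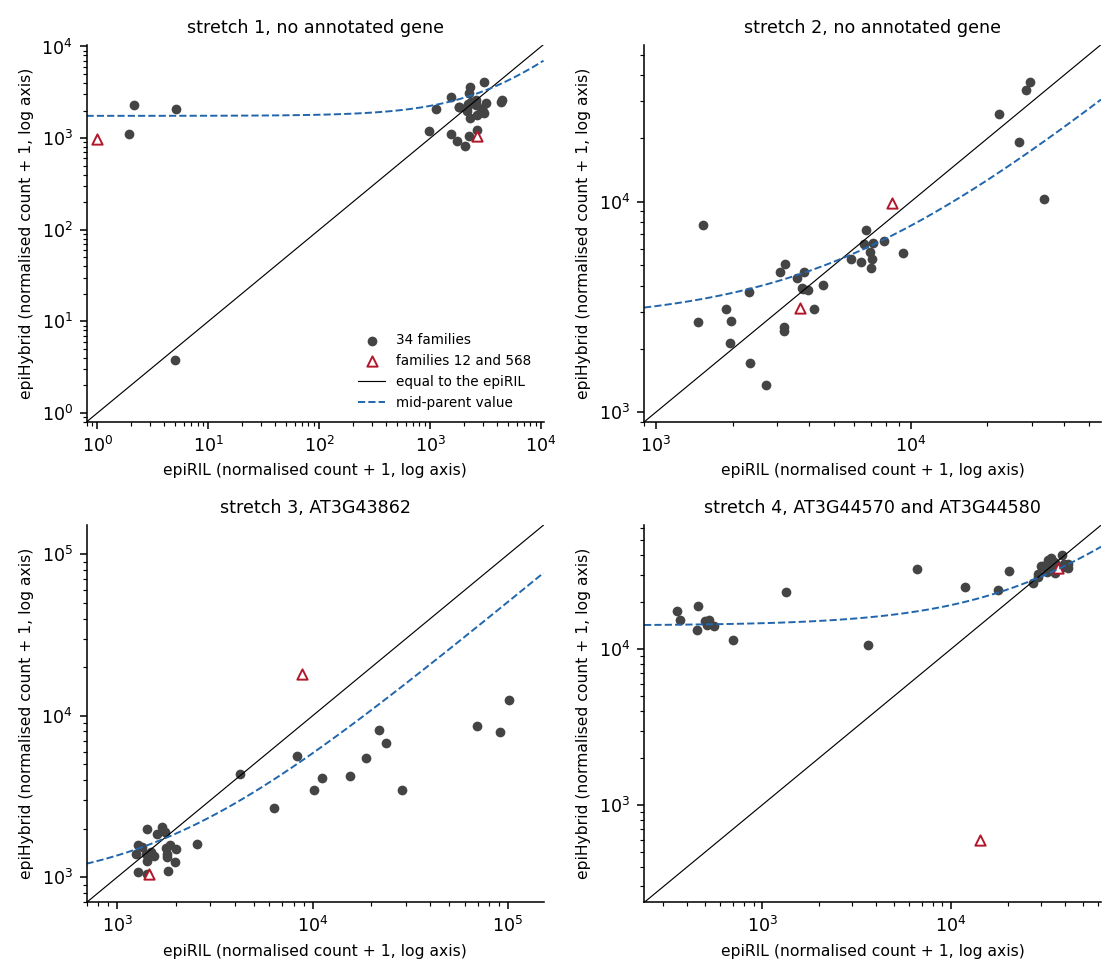
Normalised counts of each epiHybrid against its epiRIL, plus 1 and on log axes, at 4 stretches in the 100-kb bins that varied most between epiRILs. The thin line is equality, the dashed curve the mid-parent value, and open triangles are families 12 and 568. At the pseudogene AT3G43862 the highest epiRILs (101300, 91120) have epiHybrids far below the curve, and at AT3G44570 and AT3G44580 the lowest epiRILs have epiHybrids at 11520 to 23240.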

How the data were processed

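Counts are the deposited whole-number read counts of the authors for regions of 200 bp at steps of 50 bp, made with ShortStack, by the study's methods, with default parameters, microRNA search off and the TAIR10 genome, from small RNA libraries with unique molecular identifiers. The ShortStack version, the handling of reads with several matches and the use of the identifiers are not given in the sources used here. The counts cover all read lengths. Non-overlapping CHH regions were used, and CG and CHG regions as alternatives. Members, lists and tests were chosen with earlier results of these data known.

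Filtering kept windows averaging 2 or more counts per library, and these were tested in edgeR 4.0.16 (R 4.3.3; TMM, quasi-likelihood F test, Benjamini-Hochberg below 0.05 over the genome). epiHybrids and epiRILs were fitted with family as a block, because the number marks the father of the cross: 30 of 36 epiHybrids correlated best with their own epiRIL over 1078 windows (correlations of 0.101 to 0.821). All 74 libraries were fitted as 3 groups for the comparisons with msCol. limma 3.58.1 and DESeq2 1.42.0 served as alternatives. Summed levels were tested by permutation with 100000 draws (Python 3.11.15, SciPy 1.17.1). The fits were tested on simulated data. There the comparisons with msCol missed most of the changed windows, so a small number of calls does not show that few windows differ.

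Named windows had a mean of at least 20 counts and lay at least 2 kb apart within a set: the 5 most abundant outside RNA genes, the 5 higher and the 5 lower windows that led by fold change the calls between epiHybrids and epiRILs (same direction in at least 27 of 36 families) and between epiRILs and msCol, the 3 in each direction against the mid-parent value, and the 5 with the largest coefficient of variation over epiRILs. Of these, 2 windows are not reported here, so the increases described do not include every leading window. Totals per library limit precision, and the error of single counts is counting error only. The reference chromosome lengths equal the ends of the deposited regions.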

Additional observations from a re-analysis of the deposited data

How the results depend on the processing

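The comparisons with msCol rest on 2 mothers of unlike composition. The summed level of epiHybrids against epiRILs (-0.0059 on the log2 scale) changed sign with library size only (0.047), CG regions (0.0059) and CHG regions (0.0052), and without pairing (no replicate block) its permutation p was 0.727. Divergence from the mid-parent value (-0.84%) was -3.48% with DESeq2 size factors, 6.85% with library size only, 0.459% with CHG regions, -5.16% in an interval 1 Mb shorter on each side and -1.69% without the 100 most abundant windows. With 1 msCol library left out it ranged from -2.29 to 0.659%. epiRILs against msCol (-0.014 on the log2 scale) gave 0.128 with library size only, 0.0040 with CHG regions, -0.070 with DESeq2 size factors and -0.111 in the shorter interval, and -0.056 to 0.029 with 1 msCol library left out. Library size alone moved the median over all windows from 0.025 to 0.134 (log2) for the mid-parent comparison and from 0.030 to 0.143 for epiRILs against msCol.

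The difference from the other 4 pericentromeres (1.48 points) was -0.641 in the shorter interval, 0.624 without the 100 most abundant windows, and 1.13 to 1.81 with 1 msCol library left out. By alternatives chosen after seeing the data it was -0.239 without chromosome 5, and -0.107 when families 12 and 568 were left out as well. The correlation of epiHybrid and epiRIL levels was 0.337 without families 12 and 568.

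Calls of epiHybrids against epiRILs (1500) fell to 533 without the replicate block, 515 with the DESeq2 Wald test without it, 567 with CG and 469 with CHG regions, which are fewer windows. Calls against the mid-parent value (100) were 312 with library size only, 16 without a filter, 33 with CG and 22 with CHG regions and 49 in the shorter interval, and 48 to 56 with 1 msCol library left out. Calls of epiRILs against msCol (213) were 81 without a filter, 83 with CG and 68 with CHG regions, and 77 to 114 with 1 msCol library left out. Bins called (40) stayed between 32 and 50. Where no construction is named, the cause was not tested. Of 224 alternatives over the calls of named windows, 192 stayed past the threshold, 32 did not and 0 changed direction. The share of windows missing in 3 or more epiRILs (24.9%) was 20.8% at a limit of 5% of msCol and 32.9% at 20%, limits chosen after seeing the data.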
